A study of Homo sapiens with 8 samples.

Results

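C4-2B prostate cancer cells that received ENZ and EPZ6438 together (labelled EPZ+ENZ, 2 libraries) were compared with C4-2B cells that received DMSO, the solvent control (2 libraries). These are 4 of the 8 libraries of the series, chosen by their labels. The other 4 came from cells given ENZ alone at 10 uM or EPZ6438 alone at 1 uM (labelled EPZ), 2 libraries each, and all cells were treated for 7 days. The labels give no separate doses for the joint treatment. C4-2B is an established androgen-independent line of the LNCaP lineage, so every group models 1 line, and the sources used here do not say whether the replicates were separate cultures. The p-values below therefore rest on the spread among these libraries alone, and that spread may be technical. The design text names the joint effect of the agents on signalling in prostate cancer cells as the question.

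Enzalutamide, for which ENZ is the usual short form, is an antiandrogen: it blocks the response of prostate cells to androgens, on which most prostate cancers depend. EPZ6438, also called tazemetostat, occupies the catalytic site of EZH2. EZH2 is the enzyme of Polycomb repressive complex 2 (PRC2), which methylates histone H3 at a lysine and keeps developmental genes silent. In dividing prostate cancer cells EZH2 transcription follows the cell cycle, and EZH2 has also been described at active genes, outside the complex.

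The values are FPKM, that is, fragment numbers divided by gene length and by library size. They were analysed as log2(FPKM + 1) for the 11874 of 26443 rows whose mean over the 8 libraries was at least 1 FPKM. A change below is the EPZ+ENZ mean minus the DMSO mean on that scale, with its standard error (SE), and a gene is said to rise or fall only where its adjusted p lay under 0.05 in limma's moderated test. Libraries held an estimated 15400000 to 24400000 fragments, and replicates correlated across genes at 0.9956 in DMSO and 0.9934 in EPZ+ENZ, where genes are not independent replicates. Summed over all rows, the FPKM came to 318599 and 314611 in DMSO and to 218646 and 224223 in EPZ+ENZ, so the joint treatment was the group with the lowest totals, and the part of this gap in single-gene changes was not tested. The share of rows listed at 0 was 37.4% and 36% in DMSO against 29% and 30.3% in EPZ+ENZ. Luminal epithelial markers were present in both groups: mean levels in DMSO and in EPZ+ENZ were 71.5 and 81.1 FPKM for the keratin KRT8, 152 and 84.7 FPKM for KRT18, and 96.8 and 59.6 FPKM for EPCAM. Of 14 fibroblast and endothelial markers, 12 lay under 1 FPKM in all 4 libraries and 6 were at 0. Their summed level was 3.37 and 3.54 FPKM in DMSO against 13.2 and 13.1 FPKM in EPZ+ENZ, of which the collagen gene COL1A1 made up most. Of 14 immune markers, 13 lay under 1 FPKM in all 4 libraries, 3 of them at 0, and the sums were 7.87 and 7.81 FPKM against 13.5 and 13 FPKM.

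After 7 days in both agents, 9591 of the 11874 tested genes (80.8%) differed from DMSO: 3957 rose (33.3%) and 5634 fell (47.4%). Changes of at least 2-fold were seen for 1212 rising genes (10.2%) and 1898 falling genes (16.0%). Each agent alone, set against the same DMSO libraries, gave 6733 calls (56.7%) for ENZ and 6623 (55.8%) for EPZ, and changes of at least 2-fold were fewer. For ENZ 303 genes (2.55%) rose and 168 (1.41%) fell that far, and for EPZ 220 (1.85%) rose and 190 (1.6%) fell. The median change over all tested genes was -0.15, and median-of-ratios scaling, which centres the bulk of genes, moved it to 0.0024. Under that scaling 4768 genes rose (40.2%) and 4765 fell (40.1%), while quantile normalization gave 4483 (37.8%) and 4812 (40.5%). The changes of gene groups below are to be read against these medians, and the counts of their members against these shares. The changes ran in opposite directions at the 2 ends of the expression range. With the tested genes in 4 equal groups by mean FPKM, the median change was 0.30 in the lowest group (0.42 after median-of-ratios scaling) and -0.67 in the highest (-0.49). In 4 groups by exonic length the medians were -0.34 in the shortest and 0.046 in the longest (-0.18 and 0.20 after scaling).

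**Figure D1:**
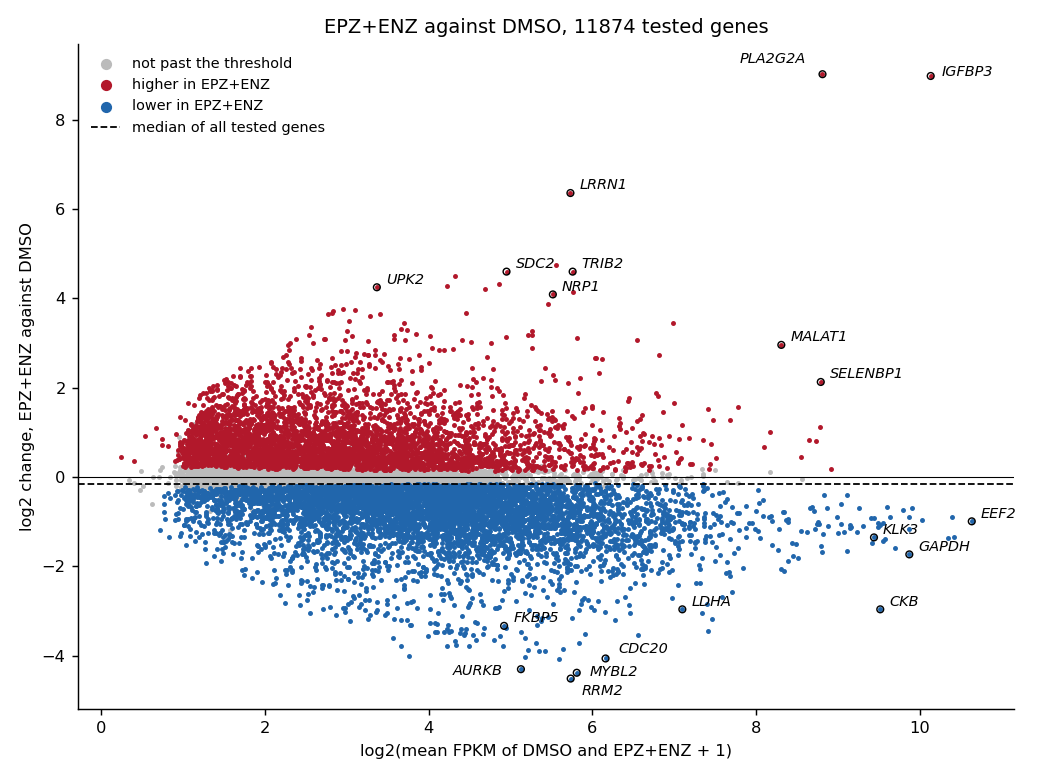
Log2 change of EPZ+ENZ against DMSO (vertical axis) by mean level, log2(mean FPKM + 1) (horizontal axis), for the 11874 tested genes, coloured by whether they rose, fell or did not pass the threshold, with named genes circled. PLA2G2A at 9.02 and IGFBP3 at 8.98 stand far above all other genes, the proliferation genes RRM2, MYBL2, AURKB and CDC20 form the lower edge, and among genes of the highest levels such as EEF2 and GAPDH most points lie below the dashed median of -0.15.

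**Figure D2:**
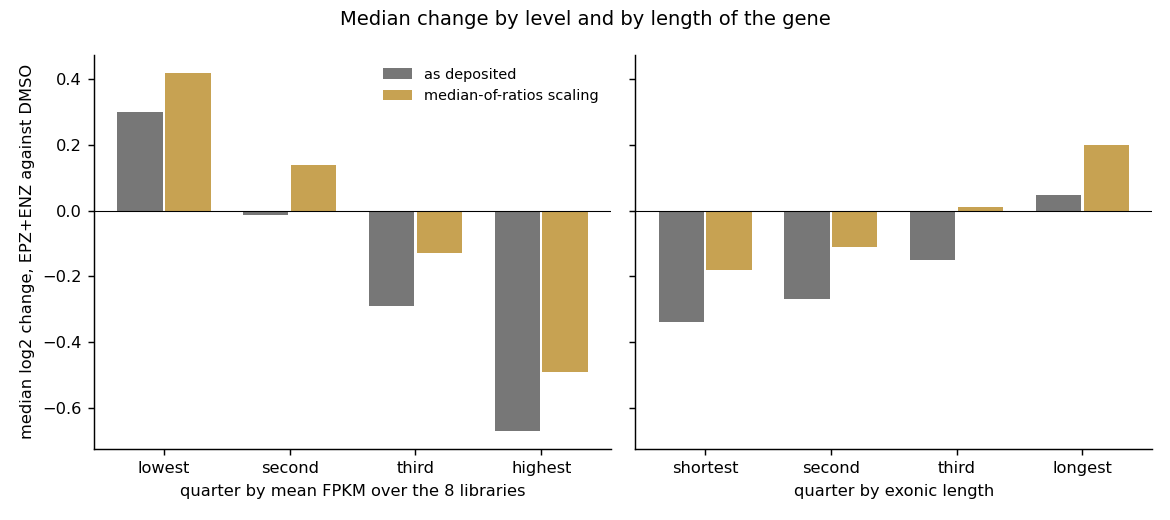
Median log2 change of EPZ+ENZ against DMSO (vertical axis) for 4 equal groups of the tested genes by mean FPKM over the 8 libraries (left) and by exonic length (right), as deposited (grey bars) and after median-of-ratios scaling (tan bars). The bars fall from 0.30 to -0.67 with rising level and climb from -0.34 to 0.046 with rising length, and both slopes remain after scaling.

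Genes of cell division fell furthest. All 50 tested genes of a list of mitotic kinases, spindle, kinetochore and anaphase genes fell, with a median change of -3.24, where 47.4% of all tested genes fell and the median was -0.15. CDC20, the activator of the anaphase-promoting complex, was listed at 134 FPKM in both DMSO libraries and at 7.06 and 7.16 FPKM in EPZ+ENZ. The 2 groups lay 18.9-fold apart, with a change of -4.06 (SE 0.052). PLK1, a kinase of centrosome maturation and mitotic entry, went from 89.7 and 91.1 FPKM to 4.75 and 4.17 FPKM (change -4.07, SE 0.064). AURKB, the kinase of the chromosomal passenger complex, had 68 and 63 FPKM in DMSO and 2.59 and 2.16 FPKM in EPZ+ENZ (change -4.30, SE 0.074). BIRC5, which encodes survivin of the same complex, fell with it: 68.1 and 66.5 FPKM became 3.42 and 2.99 FPKM. The smallest change on the list, picked out after its values were seen, was that of CKS2, a small subunit that binds cyclin-dependent kinases, from a mean of 161 to 66.7 FPKM (change -1.25, SE 0.081). The proliferation antigen MKI67 moved from 32.5 and 33.7 FPKM to 2.62 and 2.22 FPKM (change -3.32, SE 0.078), and CDK1, the kinase that drives mitosis, from 90.0 and 95.2 FPKM to 5.27 and 5.69 FPKM. The groups did not overlap in these genes, but for those among the 12 largest falls this was a condition of being named. LMNB1, a lamin of the nuclear envelope that is known to be lost in cells that leave the cycle for good, was also among the 12 largest falls, from 80.7 and 77.7 FPKM to 4.04 and 4.70 FPKM (change -3.90, SE 0.068).

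DNA replication genes followed: 44 of 45 fell, with a median of -2.55. RRM2, the small subunit of ribonucleotide reductase, which makes deoxynucleotides, showed the largest fall of all named genes on the log2(FPKM + 1) scale. By the ratio of group means it was not first, as APLN, which ended under 1 FPKM, fell 41.0-fold. The levels of RRM2 were 100 and 103 FPKM in DMSO and 3.44 and 3.58 FPKM in EPZ+ENZ, a 28.9-fold difference (change -4.51, SE 0.065). Genes of origin licensing and firing moved alike. CDT1, which loads the replicative helicase, had 39 and 38.8 FPKM in DMSO against 2.54 and 2.63 FPKM, and CDC45, part of the active helicase, had 41.4 and 40.4 FPKM against 1.98 and 2.15 FPKM. MCM10, which helps to fire origins, dropped to under 1 FPKM, from 21.4 and 23.7 FPKM to 0.775 and 0.672 FPKM (change -3.77, SE 0.079). The exception, named after its values were seen, was POLE, the catalytic subunit of DNA polymerase epsilon, with means of 14.1 and 14 FPKM (change -0.015, adjusted p = 0.865). Of 29 genes of homologous recombination and the Fanconi anaemia pathway, 27 fell (median -1.46). EXO1, a nuclease that resects DNA ends, went from 13.4 and 14.1 FPKM to 0.584 and 0.618 FPKM. ATM, the kinase that senses double-strand breaks, was the member that rose, and NBN, of the same break-sensing pathway, did not pass (change -0.17, adjusted p = 0.0848, named after its values were seen). ATM went from 2.82 and 2.94 FPKM to 5.60 and 5.49 FPKM (change 0.76, SE 0.084).

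The regulators of these genes divided. Among the 28 tested cell cycle regulators 4 rose and 23 fell (median -0.99). MYBL2, the B-MYB subunit of the complex that switches on mitotic genes, fell from 104 and 107 FPKM to 3.90 and 4.34 FPKM (change -4.38, SE 0.064). E2F1, an activator of replication genes, moved from 42 and 43.1 FPKM to 5.01 and 5.75 FPKM (change -2.77, SE 0.074), and E2F7, a repressor of the same family, from 8.73 and 8.35 FPKM to 0.912 and 0.894 FPKM. Those that rose were RBL2, the p130 pocket protein of resting cells, from 13 and 13.1 FPKM to 18.3 and 18.9 FPKM (change 0.48, SE 0.07), TFDP2, an E2F partner (change 0.56, SE 0.064), CDKN1A, and LIN37, which shares 54% of its exonic bases with another gene and is uncertain. CDKN1A, the p21 inhibitor of cyclin-dependent kinases, stood at 33.8 and 32.5 FPKM in DMSO and 39.4 and 41.6 FPKM in EPZ+ENZ (change 0.28, SE 0.062, adjusted p = 0.00188). That rise is small beside the falls above. In cells given EPZ alone CDKN1A was at 52 and 53.1 FPKM and in cells given ENZ alone at 22.6 and 20.6 FPKM, so the joint treatment lay between them. CDKN1C, the p57 inhibitor, stayed under the level filter at 0.504 and 0.306 FPKM against 1.02 and 1.23 FPKM and was not tested.

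The promoters of these genes are shown because the members moved together. Known sequence elements of cell cycle promoters are the CHR (written here as TTTGAA, and equally TTTAAA), the CCAAT box that often accompanies it, and the E2F core (TTCCCGC, and equally TTGGCGC, and equally TTCGCGC), each searched on both strands in the 250 bases before every RefSeq start. Matches of different motifs were counted separately and may overlap. In the sequences that follow, from RefSeq on GRCh38.p14 and all on the plus strand, capitals mark the matches. CDC20 is at chr1:43358731-43358980, PLK1 at chr16:23678639-23678888, and RRM2, the more upstream of 2 starts, at chr2:10122318-10122567.
CDC20: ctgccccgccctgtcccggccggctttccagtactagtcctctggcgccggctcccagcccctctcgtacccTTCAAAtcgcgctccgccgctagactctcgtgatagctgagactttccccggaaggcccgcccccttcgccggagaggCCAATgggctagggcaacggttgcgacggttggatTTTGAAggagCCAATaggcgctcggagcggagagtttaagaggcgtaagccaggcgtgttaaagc
PLK1: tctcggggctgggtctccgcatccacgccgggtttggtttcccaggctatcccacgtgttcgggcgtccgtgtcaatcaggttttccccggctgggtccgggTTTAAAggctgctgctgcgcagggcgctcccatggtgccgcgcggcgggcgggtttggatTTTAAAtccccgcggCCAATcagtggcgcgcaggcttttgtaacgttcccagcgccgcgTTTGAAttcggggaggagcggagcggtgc
RRM2: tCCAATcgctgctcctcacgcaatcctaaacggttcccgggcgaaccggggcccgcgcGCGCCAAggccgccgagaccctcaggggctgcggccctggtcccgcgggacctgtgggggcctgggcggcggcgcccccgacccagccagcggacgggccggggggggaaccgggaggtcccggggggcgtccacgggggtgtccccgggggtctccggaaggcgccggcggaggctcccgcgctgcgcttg
The 2 mitotic promoters carry both the CHR and the CCAAT box close to the start, and the RRM2 window carries a CCAAT box and an E2F core but no CHR. CDC45, the other replication gene picked by smallest p, differed from RRM2. Its window, at the most upstream of 3 starts and not printed here, held 2 CHR matches but no CCAAT box and no E2F core. Over the lists, 41 of 50 mitotic genes were matched, with 53 promoters, of which 60.4% held a CHR, 73.6% a CCAAT box, 52.8% both and 22.6% an E2F core. For replication, 39 of 45 genes were matched, with 50 promoters: 14% held a CHR, 60.0% a CCAAT box and 48.0% an E2F core. Among all 35116 promoters of the table the shares were 21.9% for the CHR, 32.0% for the CCAAT box, 7.64% for both and 9.32% for the E2F core. Promoters were found for 9346 of the 11874 tested genes, the set from which the list members shown here come. Their 13491 promoters held the CHR in 14.5%, the CCAAT box in 33.7%, both in 5.39% and the E2F core in 14.4%. A match is a description of these letters and not evidence of binding.

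Genes for building ribosomes and for other housekeeping machinery fell as well, by less per gene but from the highest levels in the cell. Of all tested genes 47.4% fell, and of the highest of the 4 groups by mean FPKM 72.9% did, with a median of -0.67. Of 28 genes of ribosome biogenesis 27 fell (median -1.69). FBL, the fibrillarin methyltransferase of the nucleolus, went from 275 and 256 FPKM to 50.2 and 50.5 FPKM (change -2.38, SE 0.059). NCL, the nucleolin protein, went from 519.7 and 497 FPKM to 119.5 and 125 FPKM, and MYC, a transcription factor that promotes this programme, from 76.5 and 75 FPKM to 18.9 and 18 FPKM (change -1.98, SE 0.053). The member that did not pass, UBTF, which binds ribosomal DNA, had means of 31.4 and 32.2 FPKM. Of 79 cytosolic ribosomal protein genes 77 fell (median -1.07), although such genes share reads with pseudogenes and single values are uncertain. RPL8 fell from 2021 and 1928 FPKM to 769 and 773 FPKM. The remaining 2, RPS3A and RPL36A, were low, with means of 5.31 and 1.28 FPKM in DMSO. Together the ribosomal protein genes took 12.6% and 12.5% of the summed FPKM in DMSO and 8.42% and 8.36% in EPZ+ENZ. With median-of-ratios scaling 75 of the 79 were lower (median -0.91), and with quantile normalization most still were (61 lower and 3 higher, median -0.39).

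The same held for energy and protein turnover. All 35 nuclear-encoded subunits of the respiratory chain fell (median -1.03), as did all 31 proteasome subunits (median -1.12) and 27 of 29 spliceosome genes (median -1.05). These counts too stand beside falls in 47.4% of all tested genes and in 72.9% of the highest group by mean FPKM (median -0.67). Under quantile normalization 30 of the 35 respiratory chain genes were lower (median -0.42), 27 proteasome genes were lower and 1 higher (median -0.56), and 25 spliceosome genes were lower and 2 higher (median -0.50). ATP5B, the catalytic subunit of the ATP synthase, moved from 838 and 837 FPKM to 263 and 267 FPKM (change -1.66, SE 0.05), and PSMB5, a catalytic proteasome subunit, from 83.1 and 81.2 FPKM to 27.1 and 25.9 FPKM. SRSF6, a splicing regulator, was the spliceosome gene that rose, and SF3B1, of the branch-point complex, did not pass. SRSF6 went from 45.5 and 48.2 FPKM to 64.8 and 67.9 FPKM. Of 14 genes often used as housekeeping references, 11 fell and 1, B2M, rose. GAPDH, the most used of them, dropped from 1395 and 1486 FPKM to 424 and 441 FPKM (change -1.73, SE 0.055), a 3.33-fold difference as deposited. After quantile normalization, which forces every library to one distribution, 9 of the 14 fell and 5 rose. CKB, the brain-type creatine kinase, was among the largest losses in FPKM, from 1327 and 1268 FPKM to 164 and 168 FPKM (change -2.96, SE 0.074), and EEF2, the elongation factor of translation, from 2146 and 2084 FPKM to 1048 and 1082 FPKM. In bulk RNA, fewer cells with a transcript and less of it per cell cannot be told apart.

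Central metabolism fell with a few members against the trend. The counts stand beside falls in 47.4% of all tested genes and in 72.9% of the highest group by mean FPKM (median -0.67). Of 26 genes of glycolysis and the hypoxia response 21 fell and 4 rose (median -1.08). Under quantile normalization 17 of them were lower and 5 higher (median -0.73). LDHA, the lactate dehydrogenase of fermenting cells, fell 8.01-fold, from 241 and 243 FPKM to 30.6 and 29.8 FPKM (change -2.96, SE 0.064), and HK2, the first kinase of the pathway, from 20.8 and 20.3 FPKM to 2.10 and 1.58 FPKM. The risers were EGLN3, an oxygen-sensing hydroxylase (change 2.41, SE 0.09), ENO2, the neuronal enolase (change 1.57, SE 0.083), NDRG1, and VEGFA, the angiogenic growth factor, which was named after its values were seen (change 0.39, SE 0.061). In lipid synthesis 14 of 18 fatty acid genes fell (median -1.31) and 19 of 25 cholesterol genes (median -0.81), and quantile normalization moved these medians to -0.80 and -0.51. SCD, the desaturase that makes oleate, went from 219 and 216 FPKM to 31.1 and 34 FPKM (change -2.70, SE 0.058). TM7SF2, a sterol reductase of cholesterol synthesis, moved the other way, from 115 and 107 FPKM to 328 FPKM in both EPZ+ENZ libraries (change 1.56, SE 0.082), as did SC5D, a sterol desaturase (change 1.57, SE 0.071), and the sterol exporter ABCG1 (change 1.27, SE 0.1). The 4 fatty acid genes that rose were MLXIPL, a glucose-responsive transcription factor, ACSL4, ACACB and ELOVL6, with changes of 0.32 for ELOVL6, named after its values were seen, to 1.10 for MLXIPL. Amino acid genes under ATF4, the factor of the integrated stress response, were mixed: 14 of 22 fell and 7 rose. PSAT1, of serine synthesis, fell from 73.1 and 71.5 FPKM to 18.6 and 17.9 FPKM, and NUPR1, a stress-induced chromatin protein, rose from 34.4 and 35.2 FPKM to 62.4 and 69.3 FPKM.

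**Figure D3:**
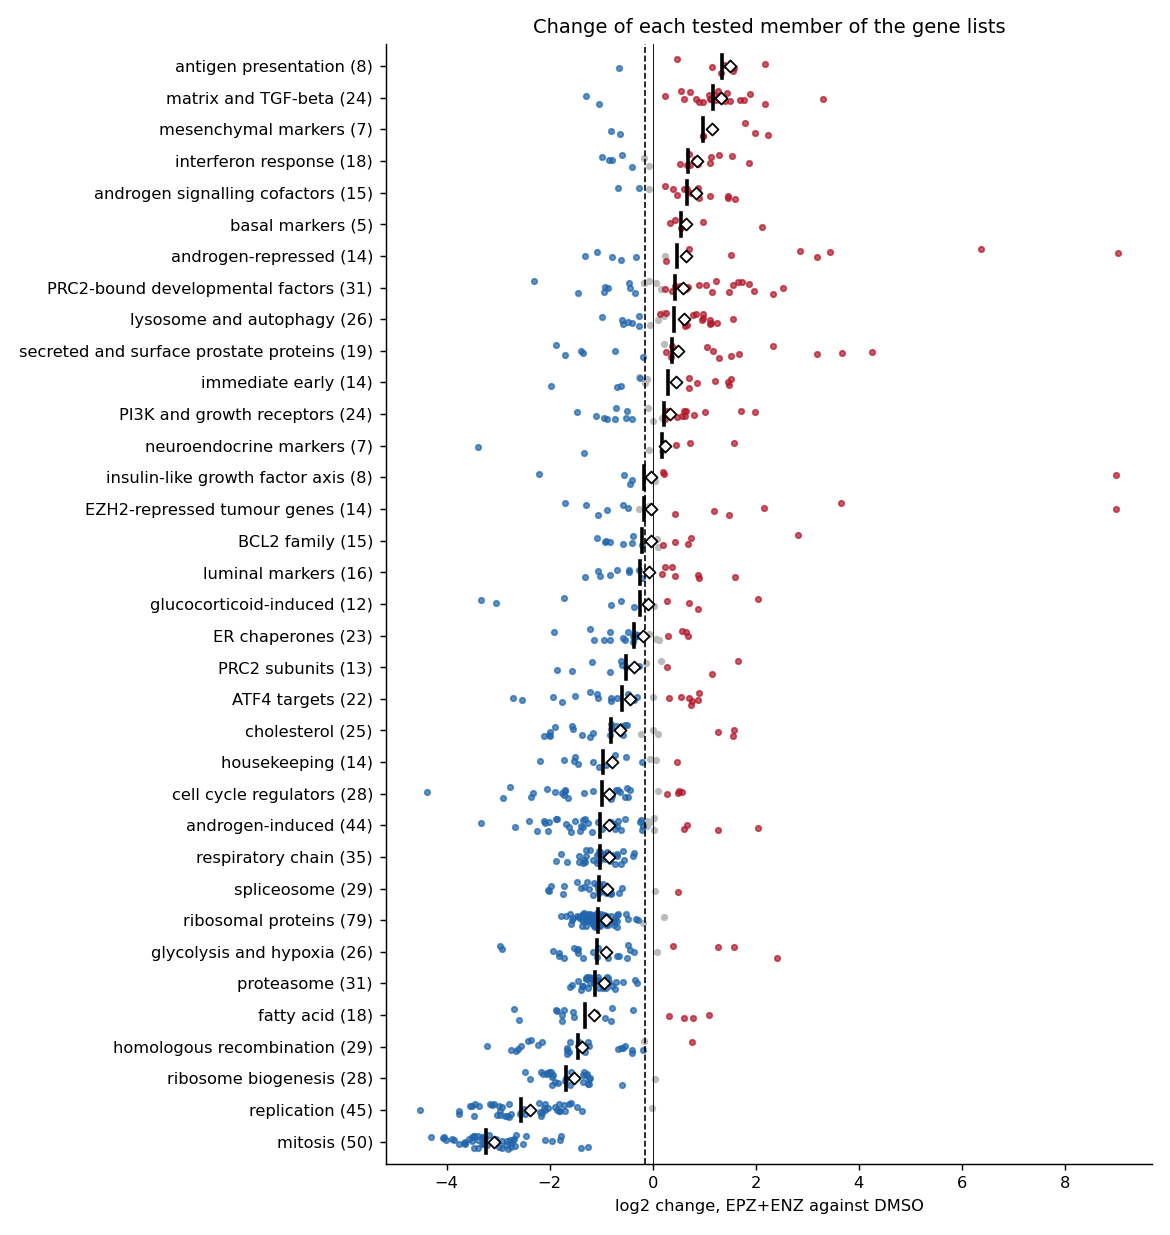
Log2 change of EPZ+ENZ against DMSO (horizontal axis) of each tested member (points: red rose, blue fell, grey did not pass) of gene lists with at least 5 tested members (rows, number tested in brackets). Black bars are list medians as deposited, diamonds the medians after median-of-ratios scaling and the dashed line the median of all tested genes, -0.15. Mitosis at -3.24 and replication at -2.55 lie lowest, and antigen presentation at 1.35 and matrix and TGF-beta at 1.16 highest. Medians that turn under quantile normalization are those of ER chaperones (0.26), luminal markers (0.32), BCL2 family (0.029) and neuroendocrine markers (-0.15).

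Androgen-regulated genes did not move as a block. Of 44 tested androgen-induced genes 34 were lower and 4 higher than in DMSO by the test (median -1.02), where 47.4% and 33.3% of all tested genes were. Under quantile normalization 31 genes of the list were lower and 8 higher (median -0.58). The median was -1.29 for ENZ alone and 0.67 for EPZ alone, both against the same DMSO libraries. FKBP5, a co-chaperone of steroid receptors, was lowest under the joint treatment. It was listed at 53.7 and 54.5 FPKM in DMSO, 8.69 and 9.79 FPKM in ENZ, 77.7 and 82.6 FPKM in EPZ and 4.69 and 4.28 FPKM in EPZ+ENZ, a fall of 3.33 (SE 0.071) from DMSO and of 0.90 (SE 0.071, adjusted p = 2.51e-06) from ENZ alone. UAP1, of hexosamine synthesis, was also lowest under the joint treatment, with 22 and 21.6 FPKM against 46.3 and 49.9 FPKM in ENZ, but it was not highest in EPZ. It had 144 and 145 FPKM in DMSO and 128 and 135 FPKM in EPZ. Kallikreins behaved otherwise. KLK3 (chr19:50854915-50860764, plus strand, GENCODE 29, hg38), which encodes prostate-specific antigen, stood at 978 and 1015 FPKM in DMSO, 225 and 223 FPKM in ENZ, 2800.4 and 2803 FPKM in EPZ and 383 and 400.2 FPKM in EPZ+ENZ. It was therefore lower than in DMSO (change -1.35, SE 0.047) and higher than in ENZ alone (0.80, SE 0.047, adjusted p = 3.18e-07). KLK2 had the same order, with 72 and 80.1 FPKM in DMSO and 29.5 and 27.1 FPKM in EPZ+ENZ. KLK2 and KLK3 are close relatives and may share reads.

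TMPRSS2, the serine protease whose promoter drives ETS fusions in prostate cancer, ended near its control level. Its values were 92.3 and 90.1 FPKM in DMSO and 86.1 and 88.4 FPKM in EPZ+ENZ, which do not overlap but did not pass the test (change -0.063, 95% interval -0.18 to 0.05, adjusted p = 0.267). The sign turned under median-of-ratios scaling (0.11) and quantile normalization (0.62). Against ENZ alone, with 19.7 and 20 FPKM, TMPRSS2 was higher by 2.08 (SE 0.05, adjusted p = 1.36e-09), and against EPZ alone, with 381 and 396 FPKM, it was lower by a change of -2.14 (SE 0.05). Over the list, 23 of 44 genes were higher in EPZ+ENZ than in ENZ alone and 14 lower, where 25.3% and 45.5% of all tested genes were. Against EPZ alone 42 of 44 were lower and 1 higher, where 43.7% and 29.2% of all tested genes were. The 4 androgen-induced genes above DMSO were TSC22D3, a glucocorticoid-responsive leucine zipper gene (7.58 and 7.65 FPKM against 33.5 and 35.7 FPKM), NDRG1, a stress and differentiation gene (17.9 FPKM in both libraries against 45.1 and 43.4 FPKM), STEAP2, a metalloreductase (change 0.66, SE 0.075), and LIFR, a cytokine receptor named after its values were seen (change 0.61, SE 0.077).

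Among 15 tested genes of a list of androgen signalling cofactors 12 rose and 2 fell (median 0.67), where 33.3% and 47.4% of all tested genes did. The same shares stand beside the counts of glucocorticoid-induced genes and luminal markers below. GATA2, a pioneer factor of androgen-regulated enhancers, rose from 59.9 and 62.3 FPKM to 164 and 175 FPKM, and NCOA3, a coactivator, from 3.69 and 3.65 FPKM to 11.4 and 12.2 FPKM. The pair that fell was NCOA1, another coactivator (change -0.68, SE 0.062), and the homeobox factor HOXB13, from 103 and 105 FPKM to 82.6 and 89 FPKM (change -0.27, SE 0.057). The fall of HOXB13 did not pass under median-of-ratios scaling (-0.10) and turned to 0.42 under quantile normalization. Glucocorticoid-induced genes, some of which androgens also control, split as well, with 4 of 12 rising and 6 falling (median -0.25). The metallothionein MT2A, which shares reads with its family, fell from 283 and 294 FPKM to 32.1 and 36.3 FPKM, and KLF9, a transcription factor, rose with a change of 0.88, as did TSC22D3, DUSP1 and ERRFI1. Luminal markers as a list split, with 7 rising and 9 falling (median -0.24), or 9 rising and 4 falling after quantile normalization (median 0.32).

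Genes that androgens repress are a list in which 8 of 14 rose and 5 fell, where 33.3% and 47.4% of all tested genes did. The list median was 0.47, or 1.06 under quantile normalization, against 1.65 for ENZ alone and 0.22 for EPZ alone. The list holds 20 genes, of which 5 lay under 1 FPKM in all 4 libraries. PLA2G2A, LRRN1 and BCHE, the last named after its values were seen, averaged under 1 FPKM in DMSO. They reached the filter only through groups with higher levels, so the count is a description. Some of the largest single rises are on this list. PLA2G2A encodes a secreted phospholipase A2 and lies at chr1:19975431-19980416 on the minus strand (GENCODE 29, hg38). It was listed at 0.565 and 0.907 FPKM in DMSO, 103 and 96.6 FPKM in ENZ, 11.7 and 9.37 FPKM in EPZ and 844 and 948 FPKM in EPZ+ENZ (change 9.02, SE 0.12). The DMSO values rest on an estimated 14.7 and 31 fragments. Both single agents raised it, and the joint treatment exceeded each of them, by 3.15 over ENZ and 6.29 over EPZ (SE 0.12 for both). LRRN1, a leucine-rich repeat membrane protein, showed a like order, with 0.271 and 0.284 FPKM in DMSO, 10.4 and 10.8 FPKM in ENZ, 1.21 and 1.11 FPKM in EPZ and 97.5 and 111 FPKM in EPZ+ENZ (change 6.36, SE 0.077). COLEC12, a scavenger receptor of the same list, was not highest under the joint treatment: it was at 79.5 and 76.3 FPKM in ENZ and 63.5 and 68.6 FPKM in EPZ+ENZ, against 6.29 and 6.45 FPKM in DMSO. The 5 that fell were TNFRSF10B, a death receptor (change -0.61, SE 0.055), the glucuronidating enzymes UGT2B11, UGT2B28 and UGT2B15, which are near-identical and uncertain, and MAOA, the monoamine oxidase (change -0.32, SE 0.048). UGT2B15 and MAOA were named after their values were seen.

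**Figure D4:**
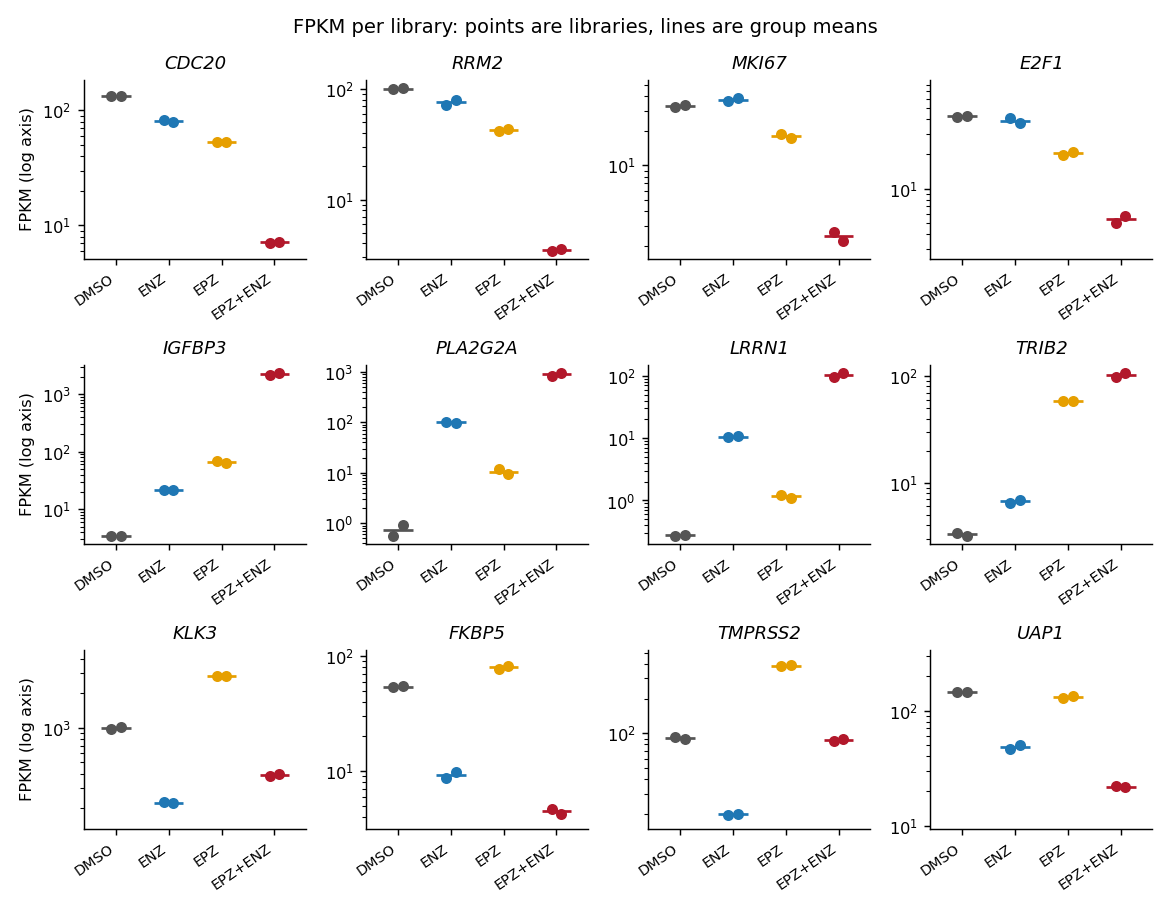
FPKM of 12 genes in each library (points, log axes) with group means (lines) for DMSO, ENZ, EPZ and EPZ+ENZ. CDC20, RRM2, MKI67 and E2F1 are lowest under the joint treatment, IGFBP3, PLA2G2A, LRRN1 and TRIB2 highest, and KLK3 and TMPRSS2 lie between the low level of ENZ and the high level of EPZ, while FKBP5 at 4.69 and 4.28 FPKM and UAP1 at 22 and 21.6 FPKM lie below ENZ.

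IGFBP3, a secreted protein that binds insulin-like growth factors, showed the largest gain in FPKM of any named gene. It lies at chr7:45912245-45921874 on the minus strand (GENCODE 29, hg38). Its level was 3.45 FPKM in both DMSO libraries, 21.3 and 21.6 FPKM in ENZ, 69.2 and 64.1 FPKM in EPZ and 2152 and 2331 FPKM in EPZ+ENZ, a 650.1-fold difference from DMSO (change 8.98, SE 0.061). The joint treatment stood 6.64 (SE 0.061) above ENZ and 5.05 (SE 0.061) above EPZ on the log2 scale, and IGFBP3 alone took 0.984% and 1.04% of the summed FPKM there, against 0.00108% and 0.0011% in DMSO. Of the 8 tested genes of the insulin-like growth factor axis 3 rose and 4 fell. IRS1, an adaptor, and IGF1 were among those that fell, but IGF1 shares 82.4% of its exonic bases with another gene and is uncertain. IGF1R, the receptor, went from 5.30 and 5.11 FPKM to 3.71 and 3.69 FPKM (change -0.40, SE 0.07). IGF2R, the clearance receptor, and IRS2, an adaptor, had changes of 0.19 and 0.22 that passed the test narrowly. That of IRS2 was lost on leaving out any 1 of the 4 libraries and turned to -0.12 after quantile normalization, and that of IGF2R was lost without DMSO replicate 1 (0.19), without DMSO replicate 2 (0.20) and without EPZ+ENZ replicate 1 (0.16). Without any 1 of these 3 libraries the number of genes of the axis that rose was 1, IGFBP3. IGFBP2, another binding protein, fell from 78.5 and 72.8 FPKM to 51.3 and 51.2 FPKM (change -0.55, SE 0.092), but was at 0.08 after quantile normalization.

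Other large rises were of genes with varied roles. TRIB2, a pseudokinase, stood at 3.40 and 3.18 FPKM in DMSO, 6.51 and 6.88 FPKM in ENZ, 58.1 and 58.3 FPKM in EPZ and 99.2 and 107 FPKM in EPZ+ENZ (change 4.60, SE 0.063), so its level was nearest to that of EPZ alone. SDC2, a heparan sulfate proteoglycan, was raised to similar levels by each agent and much further by both: it had 1.32 and 1.58 FPKM in DMSO, 7.80 and 7.94 FPKM in ENZ, 6.08 and 5.63 FPKM in EPZ and 59.4 and 57.4 FPKM in EPZ+ENZ (change 4.60, SE 0.073). NRP1, a co-receptor of semaphorins and VEGF, rose from 4.10 and 4.07 FPKM to 84.3 and 86.6 FPKM, and S1PR3, a receptor of sphingosine phosphate, from 5.27 and 4.36 FPKM to 96 and 108 FPKM. ZC3H12A, an endonuclease that degrades inflammatory mRNA, rose from 4.44 and 4.83 FPKM to 81.4 and 81.2 FPKM (change 3.87, SE 0.11). In the other direction APLN, a secreted peptide of vessel growth, fell from 24.5 and 24.4 FPKM to 0.531 and 0.663 FPKM (change -4.00, SE 0.079). MALAT1, a nuclear long noncoding RNA, rose from 69.1 and 73 FPKM to 582 and 541 FPKM (change 2.96, SE 0.074), and SELENBP1, a selenium-binding protein of differentiated epithelium, from 163 and 165 FPKM to 712 and 728 FPKM.

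Uroplakins, the plaque proteins of the urothelial surface, were nearly absent from DMSO. UPK2 was listed at 0 and 0.0528 FPKM in DMSO and at 17.7 and 19.5 FPKM in EPZ+ENZ, and UPK1A at 0.0474 and 0 FPKM and at 11 and 13.2 FPKM. These DMSO values rest on an estimated 1.18 fragments or fewer, so their fitted changes of 4.25 and 3.67 depend on the added 1 FPKM. UPK3A, with 1.43 and 1.27 FPKM in DMSO, rose to 20.3 and 20.6 FPKM (change 3.19, SE 0.081). The single agents gave lower levels of each: UPK2 was at 1.5 and 1.18 FPKM in ENZ and 0.482 and 0.432 FPKM in EPZ. These 3 belong to a list of 19 tested secreted and surface proteins of the prostate and urothelium, of 31 listed. UPK2 and UPK1A reached the mean of 1 FPKM only through groups in which they were raised, and 11 listed genes lay under 1 FPKM in all 4 libraries, so the count of 12 that rose and 6 that fell (median 0.37) is a description. Those that fell include AZGP1, a secreted zinc-binding glycoprotein (158 and 162 FPKM against 44 and 41.9 FPKM), and the kallikreins above.

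Extracellular matrix and TGF-beta genes mostly rose, with 22 of the 24 tested higher (median 1.16), where 33.3% of all tested genes rose. The list holds 33 genes, of which 7 lay under 1 FPKM in all 4 libraries. TGFB2, SMAD3, LTBP1 and COL5A1 averaged under 1 FPKM in DMSO and reached the filter only through groups with higher levels, so the count is a description. COL12A1, a fibril-associated collagen, rose from 1.56 and 1.37 FPKM to 23.4 and 23 FPKM (change 3.30, SE 0.073), and COL6A2 from 16.1 and 15.6 FPKM to 75 and 76 FPKM. ID1, a target of BMP signalling, rose from 35.4 and 42.2 FPKM to 136 and 133 FPKM. The pair that fell was BMPR1B, a BMP receptor (change -1.30, SE 0.083), and its ligand BMP7 (change -1.05, SE 0.089). TNC, the matrix protein tenascin C, was not on this list. It was listed at 0.0151 and 0 FPKM in DMSO and at 12.2 and 12.3 FPKM in EPZ+ENZ. Of 20 mesenchymal markers 7 passed the level filter, of which FN1, TAGLN, COL1A1, ITGA5 and VIM rose and the transcription factors SNAI1 and SNAI2 fell. FN1, which encodes fibronectin, went from 18.7 and 19.8 FPKM to 90.2 and 98.1 FPKM (change 2.23, SE 0.064), and SNAI2 from 1.35 and 1.47 FPKM to 0.295 and 0.435 FPKM. Of 14 basal cell markers, 9 lay under 1 FPKM in all 4 libraries and the 5 tested rose, by 2.12 (SE 0.095) for the integrin ITGB4 and by 0.34 to 0.97 for LAMB3, ITGA6, DST and LAMA3, of which DST did not pass under quantile normalization (0.18). LAMB3 and DST averaged under 1 FPKM in DMSO and likewise reached the filter only through groups with higher levels. Of 25 neuroendocrine markers 18 lay under 1 FPKM in all 4 libraries and 5 were at 0. Among the 7 tested, ENO2, TUBB3 and REST rose and AURKA and DLL3 fell. The share of TUBB3 exons that overlap another gene is 35.8%, so its value is uncertain.

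The target of EPZ6438 fell at the RNA level. EZH2 (chr7:148807383-148884321, minus strand, GENCODE 29, hg38) had 26.2 and 25.4 FPKM in DMSO, 23.4 and 26.3 FPKM in ENZ, 16.1 and 14.7 FPKM in EPZ and 6.47 and 6.28 FPKM in EPZ+ENZ, a 4.04-fold difference (change -1.86, SE 0.072). An inhibitor of the enzyme leaves its gene intact, so this level does not check the labels. Of 13 PRC2 subunits 8 fell and 3 rose (median -0.53), where 47.4% and 33.3% of all tested genes did. RBBP7, a histone chaperone subunit, fell from 76.8 and 75.7 FPKM to 32.6 and 33.2 FPKM. The risers were EZH1, the paralogue of EZH2, from 2.89 and 3.53 FPKM to 8.15 and 8.33 FPKM (change 1.14, SE 0.1), JARID2, which helps to place the complex on chromatin, from 4.42 and 3.75 FPKM to 15.5 and 14.7 FPKM (change 1.66, SE 0.079), and PHF1, an accessory subunit (change 0.27, SE 0.077). The call of PHF1 was lost without DMSO replicate 2 (0.20) and without EPZ+ENZ replicate 2 (0.24).

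Developmental factors that PRC2 typically keeps silent were for the most part not expressed. Of 79, 31 reached a mean of 1 FPKM, and a gene silent in DMSO reaches it only by being high elsewhere, so the count of 18 that rose and 8 that fell is a description (median 0.43). HOXC4 rose from 0.663 and 0.651 FPKM to 7.30 and 7.45 FPKM, HOXC13 from 6.71 and 6.23 FPKM to 21.5 and 23.5 FPKM, and EVX1, a homeobox gene beside the HOXA cluster, from 0.0822 and 0.0781 FPKM to 3.24 and 3.21 FPKM. Others fell: DLX1 went from 7.57 and 8.46 FPKM to 0.740 and 0.924 FPKM (change -2.30, SE 0.088), and WT1 from 3.05 and 3.15 FPKM to 0.438 and 0.572 FPKM. Among 14 tested tumour genes described as silenced by EZH2, 6 rose and 6 fell (median -0.18), where 33.3% and 47.4% of all tested genes did. The list holds 26 genes, of which 9 lay under 1 FPKM in all 4 libraries. IGFBP3, described above, was among those that rose. WNT5A, a noncanonical Wnt ligand, rose from 0.633 and 0.497 FPKM to 18 and 19.2 FPKM (change 3.65, SE 0.088), and TIMP2, a metalloproteinase inhibitor, from 14.5 and 13.8 FPKM to 63 and 70.2 FPKM. WNT5A reached the filter only through groups with higher levels, so the count is a description. PEBP1, an inhibitor of RAF kinase, fell from 183 and 189.9 FPKM to 89.6 and 88.6 FPKM.

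Below the level filter, 8733 rows were at 0 in both DMSO libraries, and 1083 of them were above 0 in both EPZ+ENZ libraries. In the other direction, 6827 rows were at 0 in both EPZ+ENZ libraries and 105 of them above 0 in both DMSO libraries. Only 38 of the rows at 0 in DMSO reached 1 FPKM in both EPZ+ENZ libraries. The highest named ones were PCDHB5, a clustered protocadherin (2.22 and 2.05 FPKM), GBP3, an interferon-induced GTPase (2.47 and 1.61 FPKM), and ANXA1, a calcium-dependent lipid-binding protein (1.99 and 1.67 FPKM). DKK1, a secreted Wnt antagonist, had 1.32 and 1.66 FPKM, and DAB1, an adaptor of reelin signalling, 1.27 and 1.61 FPKM. DAB1 was also at 0 in all 4 libraries of the single agents.

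Antigen presentation and part of the interferon response rose. Of 8 tested genes of class I presentation 7 rose (median 1.35), where 33.3% of all tested genes rose. The list holds 15 genes, of which 5 lay under 1 FPKM in all 4 libraries. HLA-B went from 3.55 and 3.65 FPKM to 19.2 and 20.1 FPKM (change 2.17, SE 0.071) and HLA-C from 11.6 and 10.9 FPKM to 34.2 and 35.5 FPKM, and these genes share reads with one another. TAPBP, the tapasin of the loading complex, which is no class I chain, rose from 2.55 and 2.47 FPKM to 7.57 and 8.01 FPKM. The gene that fell, the proteasome subunit PSMB10, overlaps another gene in 34.8% of its exonic bases and is uncertain. Of 18 tested interferon-response genes 11 rose and 5 fell (median 0.69), and of the 32 listed 12 lay under 1 FPKM in all 4 libraries. IRF1, DDX58 and ISG20 averaged under 1 FPKM in DMSO and reached the filter only through groups with higher levels, so the count is a description. STAT2, which carries the interferon signal, rose from 6.83 and 6.78 FPKM to 17.8 and 18.1 FPKM, and IFI35 from 3.68 and 2.96 FPKM to 14.9 and 14.5 FPKM. OAS3, a sensor of double-stranded RNA, fell from 4.87 and 5.34 FPKM to 2.17 and 1.98 FPKM, and USP18, BST2 and ISG15, the last named after its values were seen, also fell.

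Stress, death and growth-signalling lists had no common direction. Their counts stand beside rises in 33.3% and falls in 47.4% of all tested genes. Of 15 BCL2 family genes 5 rose and 8 fell (median -0.21, or 0.029 after quantile normalization). BMF, which binds and blocks survival proteins, rose from 0.869 and 0.877 FPKM to 12.6 and 12 FPKM (change 2.82, SE 0.11), and the other risers were BNIP3L, BIK, BCL2L11 and BCL2L1, the last 2 named after their values were seen. BMF averaged under 1 FPKM in DMSO and reached the filter only through groups with higher levels. BAK1, a pore former of the mitochondrial death pathway, fell from 8.10 and 8.67 FPKM to 3.62 and 4.40 FPKM. DAPK1, a death-associated kinase, was at 0.0827 and 0.0157 FPKM in DMSO and at 10.1 and 9.37 FPKM in EPZ+ENZ. Of 24 genes of PI3K signalling and growth receptors 12 rose and 9 fell (median 0.21, or 0.07 under quantile normalization). ERBB2, a receptor tyrosine kinase, rose from 39 and 39.8 FPKM to 128 and 134 FPKM (change 1.71, SE 0.064), and AKT1, the kinase downstream of PI3K, fell from 126 and 122 FPKM to 63.3 and 64.1 FPKM. INPP4B, a lipid phosphatase of the pathway, fell from 3.35 and 3.74 FPKM to 0.642 and 0.608 FPKM. Among 14 immediate early genes 7 rose and 4 fell (median 0.29, or 0.54 under quantile normalization). BTG2, an antiproliferative gene, rose from 9.04 and 9.32 FPKM to 27.4 and 27.2 FPKM. JUN rose from 9.87 and 9.83 FPKM to 28.5 and 28.9 FPKM and FOSL2 from 5.59 and 6.04 FPKM to 18.3 and 18.7 FPKM, and those that fell were MYC, NR4A1, JUND and KLF6, the last named after its values were seen. JUND did not pass under quantile normalization (-0.063).

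Endoplasmic reticulum chaperones are the group whose direction rests most on the scaling. As deposited, 16 of 23 fell and 4 rose (median -0.37), under median-of-ratios scaling 13 fell and 6 rose (median -0.19), and under quantile normalization 6 fell and 13 rose (median 0.26). SDF2L1, a luminal co-chaperone, fell from 87.2 and 75.2 FPKM to 19.8 and 21.6 FPKM (change -1.92, SE 0.11), and XBP1, the factor of the unfolded protein response, rose from 102 and 106 FPKM to 144 and 165 FPKM (change 0.56, SE 0.07). The median for EPZ alone was 0.51, and all 23 genes were lower in EPZ+ENZ than in EPZ alone. Among 26 lysosome and autophagy genes 15 rose and 7 fell as deposited (median 0.42), where 33.3% and 47.4% of all tested genes did. The number of the list that rose was 18 with median-of-ratios scaling (0.60) and 18 with quantile normalization (0.85). PSAP, the precursor of the saposins, which is not on that list, rose from 282 and 269 FPKM to 589.9 and 609.8 FPKM. CTSB, the protease cathepsin B, rose from 29.9 and 27.9 FPKM to 62.4 and 65 FPKM.

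Set beside the single agents, the joint treatment reached levels that neither agent gave for a large share of genes. EPZ+ENZ lay above DMSO, ENZ and EPZ, each by its own test, for 2196 genes (18.5%) and below all 3 for 4062 (34.2%), or for 3065 (25.8%) and 3141 (26.5%) after median-of-ratios scaling. The genes below all 3 include all 50 of mitosis, 44 of 45 of replication, 27 of 28 of ribosome biogenesis and 34 of 35 of the respiratory chain. For mitosis the list median was -0.29 for ENZ, -1.15 for EPZ and -3.24 for EPZ+ENZ, with all 3 comparisons resting on the same DMSO libraries. RRM2 shows the order in single libraries: 100 and 103 FPKM in DMSO, 71.8 and 80.3 FPKM in ENZ, 41.8 and 43.3 FPKM in EPZ and 3.44 and 3.58 FPKM in EPZ+ENZ. LDHA gave the order of ENZ below EPZ, with 112 and 118 FPKM in ENZ, 167 and 188 FPKM in EPZ and 30.6 and 29.8 FPKM in EPZ+ENZ. Of the 44 androgen-induced genes 14 lay below all 3 other groups and 1 above. Genes above all 3 include TENM2, a cell adhesion protein, with 0.0672 and 0.0613 FPKM in DMSO, 0.355 and 0.442 FPKM in ENZ, 1.01 and 0.868 FPKM in EPZ and 12.6 and 14.3 FPKM in EPZ+ENZ, and 10 of 15 androgen signalling cofactors.

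**Figure D5:**
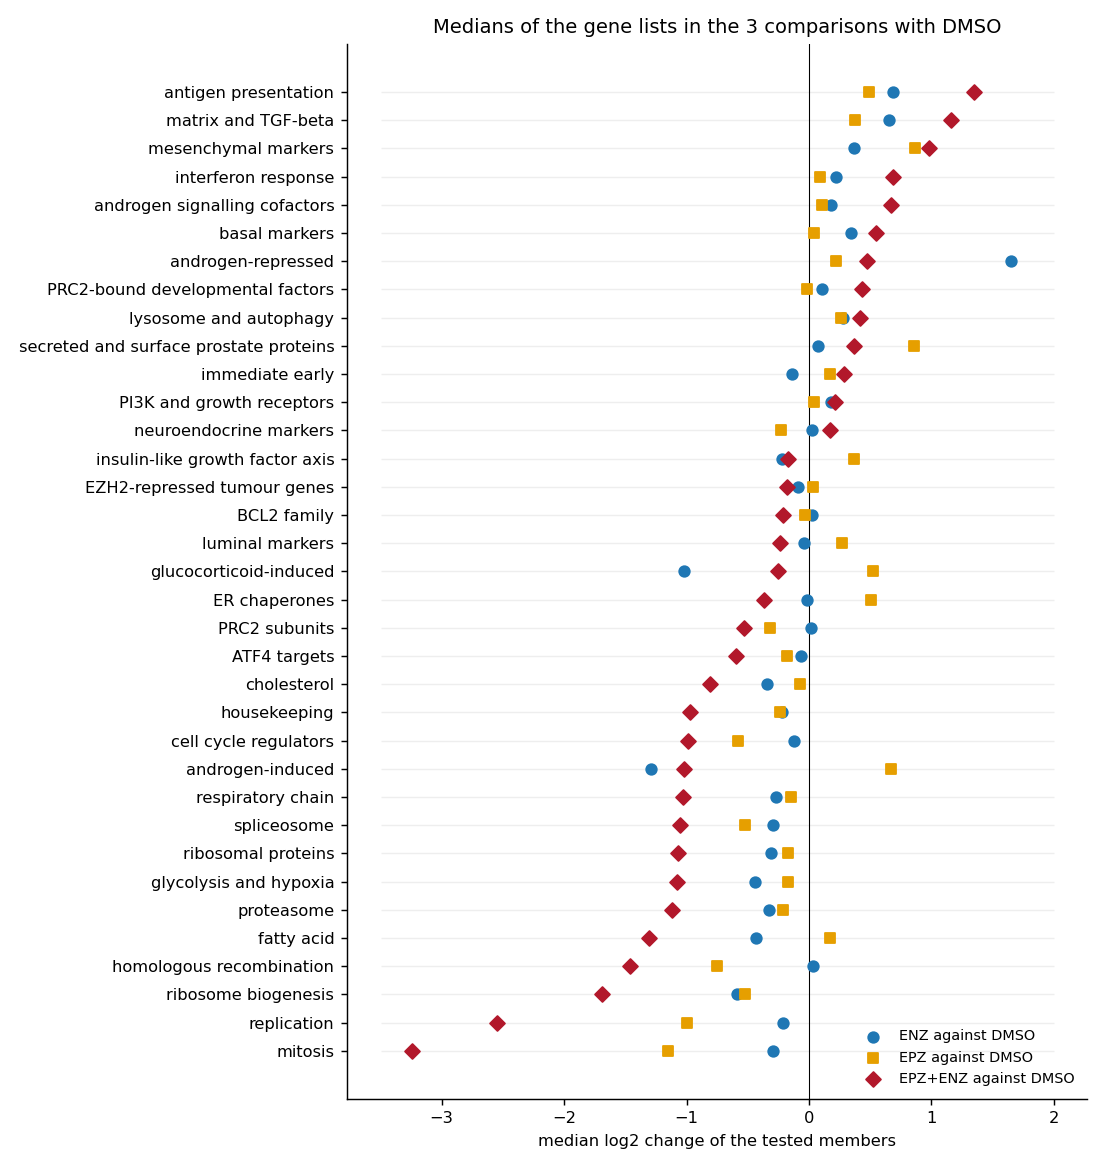
Median log2 change of the tested members of each gene list shown (rows; horizontal axis, change against DMSO) for ENZ (circles), EPZ (squares) and EPZ+ENZ (diamonds), all against the same 2 DMSO libraries. EPZ+ENZ lies lowest for mitosis (-3.24), replication (-2.55) and the lists of growth machinery, while androgen-induced genes lie at -1.29 for ENZ, 0.67 for EPZ and -1.02 for EPZ+ENZ; the EPZ+ENZ medians of ER chaperones, luminal markers, BCL2 family and neuroendocrine markers turn sign under quantile normalization.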

How the data were processed

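RNA of 8 C4-2B libraries (2 each of DMSO, ENZ, EPZ and EPZ+ENZ) was sequenced, and the authors deposited 1 table of FPKM values. Per the submitters' processing notes, STAR and hg38 were used, without versions. The sources used here name no counting tool, annotation or strand setting. FPKM are relative to library size, so a change in a few very abundant RNAs moves all others. Sample titles gave the groups and the replicate numbers.

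The gene lists and the comparison were chosen with earlier results of these data known. Rows averaging 1 FPKM or more over the 8 libraries (11874 of 26443) were fitted as log2(FPKM + 1) by limma 3.58.1 (R 4.3.3) using its mean trend. All 4 groups shared one estimate of the spread, and p-values were adjusted by the Benjamini-Hochberg method over all 11874 genes, two-sided. The added 1 understates changes of low genes. Depth was estimated from the low values: 1 fragment in 1 kb was worth 0.041 to 0.0648 FPKM. Of 28 date-like symbols none was named. On simulated data of this comparison with 11874 genes, 88.1% of 1.5-fold, 94% of 2-fold and 98.5% of 4-fold changes were recovered, and 4.1% of calls were false. The simulation used independent noise, changed 67, 67 and 66 genes by these sizes and held no shift of the bulk. In the data 80.8% of genes passed, so these shares do not measure the error of the real calls.

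Named genes were the 12 highest and 12 lowest changes without overlap, up to 4 members of each list by smallest p and up to 3 that moved against it, the 6 largest gains and losses in FPKM, the 8 highest and lowest past the threshold against every other group, up to 6 listed at 0 in DMSO, and CDKN1A, CDKN1C, EZH2, FKBP5, KLK2, KLK3, MKI67 and TMPRSS2. No pseudogene, antisense, small RNA, read-through or Y-linked gene was named. Some genes that the rule names are not reported here. Alternatives were median-of-ratios scaling, quantile normalization, an added 0.1, no filter, a mean of at least 5 FPKM, a fit of the compared groups alone, a replicate block and leaving out each library.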

Additional observations from a re-analysis of the deposited data

How the results depend on the processing

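Without the filter on low values 6272 genes rose, and with means of 5 FPKM or more required 2147 rose, 578 of them by at least 2-fold, because other genes were tested. Quantile normalization left 1251 genes at least 2-fold lower, and the cause was not tested. Rising genes made up 41.3% of calls as deposited, 50.0% after median-of-ratios scaling, 48.2% after quantile normalization, 53.3% without the filter and 31.0% with the higher minimum. Leaving out 1 library at a time gave 3619 to 3720 rising and 5232 to 5405 falling genes, of which 1216 to 1241 and 1863 to 1948 changed by at least 2-fold, where the lone sample of a group is assumed to vary like the others. Of 219 named genes tested, 210 kept their direction and their side of the threshold under every alternative run. Changes that turned were HOXB13 (0.42), IGFBP2 (0.08) and IRS2 (-0.12) after quantile normalization and TMPRSS2 after median-of-ratios scaling (0.11) and quantile normalization (0.62), and the cause was not tested. A gene with under about 1 fragment in DMSO has no usable fold change at this depth.

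With the replicate number as a block, 3988 genes rose and 5669 fell, 1214 and 1898 of them by at least 2-fold. The sample titles give these numbers without saying that same-numbered libraries form a pair or a batch. Deviations of same-numbered DMSO and EPZ+ENZ libraries correlated at 0.002 across genes. The other pairs of groups gave -0.015 to 0.109. Whether same-numbered libraries were handled together was not tested.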

Other observations

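Classes of RNA differed in direction. Of 171 tested antisense genes 100 rose and 35 fell (median change 0.47, or 0.58 after median-of-ratios scaling), and of 125 microRNA host or precursor rows 60 rose and 16 fell (median 0.90, or 0.98). For 10554 protein-coding genes 3408 rose and 5237 fell (median -0.18, or -0.03). Of 80 lincRNA genes 33 rose and 23 fell (median 0.10), and of 147 snoRNA rows 21 rose and 37 fell (median -0.12). Whether counting used strand is unknown here, so reads of an antisense gene and of its partner cannot be told apart.

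Switch-like differences were also counted over all rows of the table. There were 62 rows under 1 FPKM in both DMSO libraries and at 5 FPKM or more in both EPZ+ENZ libraries, and 37 rows with the reverse pattern.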
